A study of Gallus gallus and Anas platyrhynchos and Coturnix japonica with 11 samples.

Results

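miR-221 and miR-222 are a pair of clustered microRNAs (miRNAs), described here in the frontonasal prominence (FNP) mesenchyme of 3 bird species. The pair was taken by miRNA number from the deposited read tables, and it makes up 2 of the 186 miRNAs listed there. A further entry, the opposite (star) strand of the miR-221 hairpin, miR-221*, lies outside that choice and is given beside the pair, with its levels and its correlation with each member. The FNP is the embryonic swelling between the nasal pits that builds the mid and upper face, and its mesenchyme is of neural crest origin. Small RNAs were sequenced from chicken, quail and duck embryos at Hamburger-Hamilton stages HH20, when the faces of the 3 species look alike, and HH25, when species differences in shape have appeared. For each species and stage, the first sample was a pool of 40 embryos. Chicken and duck each have another sample per stage, made from 5 embryos, which gives 4 chicken samples, 4 duck samples and 2 quail samples. One of them, the 5-embryo sample of chicken at HH25, went through the sequencer 2 times, and the mean of these runs is used as 1 sample. The labels name no treatment or genetic change, and the comparisons ask whether the pair differs with stage and with species, and whether its members do so together.

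miRNAs are short RNAs that bind messenger RNAs, mostly through the seed near their 5′ end, and lower the output of the protein. In mammals, miR-221 and miR-222 are processed from neighbouring hairpins, share their seed, and are best known for repressing CDKN1B, the gene of the cell cycle inhibitor p27KIP1. The same relation has been described in chicken cells, where lower p27 would favour division.

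The mature sequences in the deposited files are shown because the pair shares its seed and differs behind it. They are the chicken sequences, printed 5′ to 3′, with the seed (bases 2 to 8) in capitals.
miR-221: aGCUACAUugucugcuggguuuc
miR-222: aGCUACAUcuggcuacugggucuc
miR-221*: aCCUGGCAuacaauguagauuu

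The first 8 bases of miR-221, 23 bases long, and miR-222, 24 bases long, were identical. The seed GCUACAU occurred in no other miRNA of the 186. Over the full length the pair was separated by 4 single-base changes, insertions or deletions, and each was the closest relative of the other in the list. The reads had been assigned with 0 to 2 mismatches. Quail and duck sequences were not used here, so whether a species difference in sequence moved the read counts was not tested. miR-221* carries another seed and shares it with no other miRNA of the list.

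In the chicken genome (build gga3), the miR-221 hairpin lies at chr1:114218926-114219024. One copy of miR-222 lies at chr1:114216027-114216124 and the other at chr1:114218422-114218519. The second of these and the miR-221 hairpin are 406 bases apart, the copies of miR-222 are 2297 bases apart, and the cluster spans 2998 bases. Reads of the miR-222 copies cannot be told apart, because both give the same mature sequence. In the RefSeq annotation of a later assembly, GRCg7b, MIR222 and MIR221 are again 406 bases apart on the same chromosome, no gene lies wholly between them, and 1 protein-coding locus, LOC107055472, overlaps the gap.

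Levels are normalized read counts in PMMR, the number of reads per 1000000 reads of the library. The 11 libraries held 3097711 to 10894243 reads, of which 53.5% to 85.1% fell on the 186 miRNAs, and a single read was worth 0.0918 to 0.323 PMMR. miR-221 was counted in 1405 to 5735 reads and miR-222 in 1720 to 11153 reads. Their levels over the libraries were 357.08 to 1302.7 PMMR and 395.62 to 1586.14 PMMR, far above the 15 PMMR that the authors required in at least 1 library. By level, miR-221 ranked 48th to 76th and miR-222 ranked 48th to 69th of the 186 miRNAs, with at most 0.130% and 0.159% of a library's reads. The first chicken sample at HH25 stood apart: 45 of the 186 miRNAs were over 4-fold away from their mean elsewhere, against 3 to 13 in any other sample, and the summed mesenchyme markers (miR-199, miR-199*, miR-143, miR-145) were 5498 PMMR there, against 45921 to 125429 PMMR elsewhere. All 4 mesenchyme markers were detected in every sample.

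In chicken, both members were lower at HH25. miR-221 was at 433.83 and 646.40 PMMR in the first and second HH20 samples and at 384.06 and 369.785 PMMR in those of HH25. miR-222 was at 849.41 and 952.25 PMMR at HH20 and at 470.17 and 441.8 PMMR at HH25. For both, the HH25 samples lay below the HH20 samples without overlap, as for 12.4% of all miRNAs (23 of 186). The gap was wider for miR-222. The group means were 540 ± 150 (SD, n = 2) and 377 ± 10.1 PMMR for miR-221, and 901 ± 72.7 and 456 ± 20.1 PMMR for miR-222.

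In quail, with 1 sample per stage, both members were again lower at HH25. miR-221 was at 1302.70 PMMR at HH20, its highest value in any sample, and at 613.03 PMMR at HH25. miR-222 was at 988.75 and 555.57 PMMR. Quail was the only species in which miR-221 exceeded miR-222, and it did so at both stages.

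In duck, the samples of HH25 disagreed with each other. miR-221 was at 588.54 and 619.25 PMMR at HH20 and at 616.39 and 360.10 PMMR at HH25. miR-222 was at 1321.77 and 1204.28 PMMR at HH20 and at 1586.14 and 630.24 PMMR at HH25. The former was its highest value in any sample, and the latter lay below every HH20 sample of the 3 species. Thus the first duck sample at HH25 kept the pair at the HH20 level or above, the second had both members below it, and the stages overlapped. Means at HH20 and HH25 were 604 ± 21.7 and 488 ± 181 PMMR for miR-221, and 1263 ± 83.1 and 1108 ± 676 PMMR for miR-222 (SD, n = 2).

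**Figure D1:**
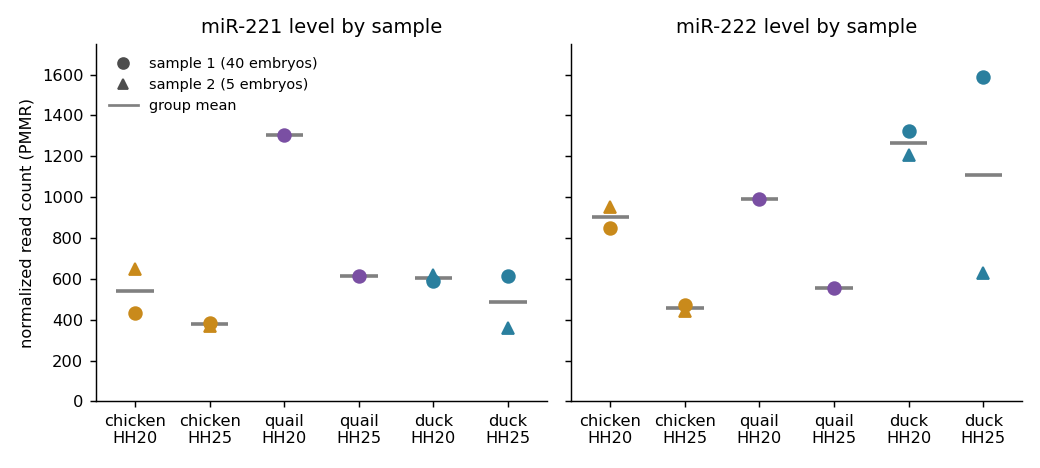
Normalized read counts (PMMR) of miR-221 (left) and miR-222 (right) by species and stage; circles are the first samples (40 embryos), triangles the second samples (5 embryos), and the line is the group mean (for quail, the single sample). miR-222 at HH25 spans 441.8 to 470.17 PMMR in chicken and 630.24 to 1586.14 PMMR in duck.

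The spread between the samples of a group differed between the members and was widest in duck at HH25. The first and second samples differed 1.12-fold in chicken at HH20, 1.06-fold in chicken at HH25 and 1.10-fold in duck at HH20 for miR-222, where the median over all miRNAs was 1.56-fold, 2.27-fold and 1.43-fold. For miR-221 these values were 1.49-fold, 1.04-fold and 1.05-fold, so that in chicken at HH20 its spread was close to the median of all miRNAs. In duck at HH25 they differed 2.52-fold for miR-222 and 1.71-fold for miR-221, both above the median of 1.45-fold. Thus the chicken sample that stood apart for many miRNAs did not do so for the pair, whose levels in it were close to those of the second chicken sample. Between first and second samples the embryo number, the preparation and the library change together and cannot be told apart.

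The first comparison asked whether the pair changes from HH20 to HH25 in the 3 species. Within samples of the same number, miR-221 at HH25 was 1.13-fold and 1.75-fold lower in chicken, 2.13-fold lower in quail, and in duck 1.05-fold higher in the first sample and 1.72-fold lower in the second. miR-222 was 1.81-fold and 2.16-fold lower in chicken, 1.78-fold lower in quail, and in duck 1.20-fold higher and 1.91-fold lower. On the PMMR scale, the members thus moved in the same direction in each of the 5 sample pairs: both were lower at HH25 in 4 and both higher in 1. In that 1, the first duck samples, the 1.05-fold rise of miR-221 rests on 1985 reads at HH20 and 1959 at HH25. The share of reads on miRNAs was 76.0% and 85.1% there, so the sign of this small rise depends on the scaling. How often other pairs of miRNAs agree in direction in all 5 was not counted. Same-numbered samples of the 2 stages are different embryos, so the matching is a choice, and the agreement in direction depends on it. From the second duck sample at HH20 to the first at HH25, miR-221 went from 619.25 to 616.39 PMMR. Between the same samples miR-222 went from 1204.28 to 1586.14 PMMR, the other way. In quail, the 95% counting intervals of the folds were 2.02 to 2.24 for miR-221, from 5722 and 1899 reads, and 1.68 to 1.88 for miR-222, from 4343 and 1721 reads. They cover counting error only, since there is no second quail sample.

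Across the 10 samples, with species as a term, neither member passed the test for stage. The log2 difference of HH25 from HH20 was -0.56 (SE 0.266, 95% interval -1.15 to 0.04) for miR-221, with an adjusted p of 0.315 by limma with Benjamini-Hochberg adjustment over the 186 miRNAs. For miR-222 it was -0.69 (SE 0.294, -1.35 to -0.04), with a limma adjusted p of 0.281. Of all miRNAs tested, 3.23% (6 of 186) passed. Unadjusted, the limma p was 0.0630 for miR-221 and 0.0408 for miR-222, beside 16.7% of all miRNAs with an unadjusted p below 0.05. The interval of miR-221 reaches just above 0, so a reduction of more than 2-fold and no change both remain within it.

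Within species, the fitted stage difference was larger in chicken than in duck for miR-222, but the difference between them was not resolved. In chicken it was -0.49 on the log2 scale (SE 0.498, -1.63 to 0.65) for miR-221 and -0.98 (SE 0.531, -2.19 to 0.24) for miR-222. In duck it was -0.36 (-1.50 to 0.78) for miR-221 and -0.34 (-1.55 to 0.88) for miR-222. None of the limma adjusted p-values passed (0.699 and 0.511 in chicken, 0.951 for both in duck), and no miRNA of the list did either (0% in each species). At an unadjusted p below 0.05 there were 21 miRNAs (11.3%) in chicken and 9 (4.84%) in duck, the pair not among them, and limma voom on the reads also called 0. These counts of 0 rest on the chicken samples at HH25: without the first of them 7 miRNAs passed in chicken and 9 in duck, and without the second 53 and 9. The test of the difference between the species' stage effects gave 0.13 (-1.48 to 1.74) for miR-221 and 0.64 (-1.07 to 2.36) for miR-222, with a limma adjusted p of 0.996 for both and 0% of the list called (1 miRNA, or 0.538%, at an unadjusted p below 0.05, and 0 by voom), but 16 miRNAs passed without the second chicken sample at HH25. With a chicken HH25 sample left out, that group is a single library and adds no spread to the fit. Without the second sample, it is the library that stood apart, so these counts are not read as stage effects. In none of these fits did a member of the pair pass. Leaving out the second duck sample at HH25 turned the duck stage difference to 0.030 for miR-221 and 0.33 for miR-222.

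By overlap alone, both members were among the 12.4% of miRNAs (23 of 186) whose HH25 samples lay below their HH20 samples in chicken. Both were also among the 46.8% that were lower at HH25 in quail by any amount, and among the 8.6% (16 miRNAs) with both features. Neither was among the 21.5% whose HH25 samples lay below their HH20 samples in duck, nor among the 17.2% that were lower at HH25 in the first samples of all 3 species. At 2-fold or more, and with over 15 PMMR in either quail sample, 11.3% of the list was lower in quail at HH25. miR-221 was among them and miR-222 was not.

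The second comparison asked whether the pair differs between duck and chicken before and after the faces diverge in shape. miR-222 was higher in duck in each pair of samples of the same number: 1.56-fold and 1.26-fold at HH20, and 3.37-fold and 1.43-fold at HH25. miR-221 was 1.36-fold higher in duck in the first samples at HH20 and 0.958 of the chicken level in the second, and at HH25 it was 1.60-fold higher and 0.974 of the chicken level. Thus, on the PMMR scale, only miR-222 lay above chicken in every duck sample of the same stage. It shared this with 14.5% of all miRNAs (27 of 186) over both stages, and with 38.7% at HH20 and 21.5% at HH25.

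With 4 samples per species and stage as a term, miR-222 was 0.81 higher in duck on the log2 scale (SE 0.359, 95% interval -0.00068 to 1.62), with an adjusted p of 0.213 by limma and Benjamini-Hochberg. miR-221 was 0.26 higher (SE 0.317, -0.46 to 0.97), with a limma adjusted p of 0.728. Neither passed, while 9.68% of the list (18 of 186) did. The unadjusted limma p for miR-222 was 0.0502, with 22.6% of all miRNAs below 0.05. The median of all miRNAs was itself shifted by 0.20 towards duck. With each library centred on its own median before the fit, the differences were 0.65 for miR-222 and 0.10 for miR-221. Scaled to the reads on miRNAs instead, the difference was 0.51 for miR-222 (limma adjusted p = 0.448) and -0.043 for miR-221.

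By stage, the difference of duck from chicken in miR-222 was 0.49 at HH20 (-0.73 to 1.70, limma adjusted p = 0.840) and 1.13 at HH25 (SE 0.531, -0.08 to 2.35, limma adjusted p = 0.372). Those of miR-221 were 0.19 (-0.95 to 1.33, limma adjusted p = 0.953) and 0.32 (-0.82 to 1.46, limma adjusted p = 0.808). At HH20 0% of the list passed (23 miRNAs, or 12.4%, at an unadjusted p below 0.05, and 0 by voom) and at HH25 2.15% did (4 of 186, with 14% at an unadjusted p below 0.05 and 0 by voom). At HH20 14 miRNAs passed with either chicken HH25 sample left out and 1 without the intensity trend, and at HH25 7 passed without the first chicken HH25 sample and 43 without the second, the pair not among them. The counts with a chicken HH25 sample left out come from fits in which that group is a single library, and they are not read as species effects. The sign for miR-221 at HH20 depends on the scaling. The median of all miRNAs was shifted by 0.35 towards duck. With each library centred on its own median, the difference of miR-221 was -0.14. The HH20 difference of miR-222 fell from 0.49 to 0.16 with this centring and to 0.15 when scaled to the reads on miRNAs. At HH25 that of miR-222 was 1.14 and 0.88 on these scales. The HH25 value of miR-222 rests in large part on the first duck sample; with each sample left out in turn it ranged from 0.47, without that sample, to 1.80, without the second duck sample at HH25.

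**Figure D2:**
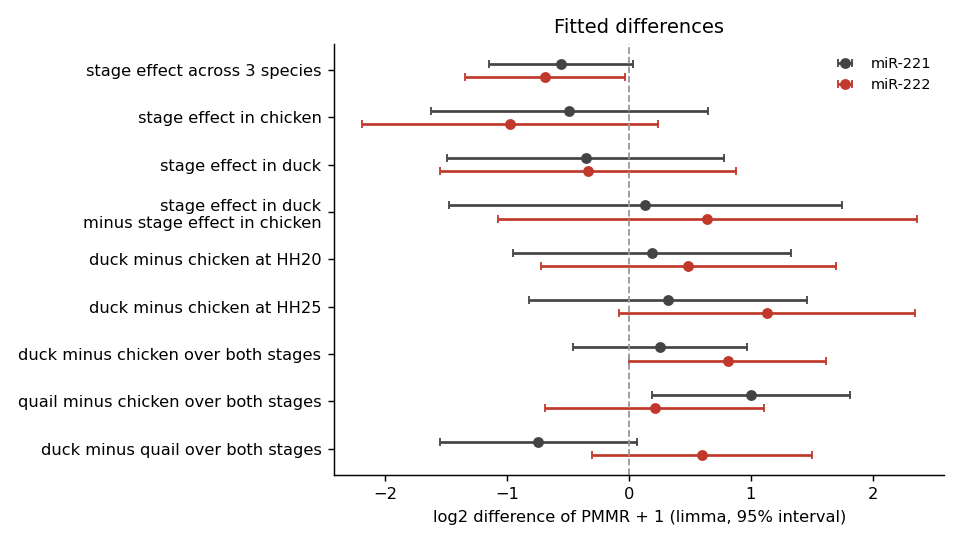
Fitted log2 differences of PMMR + 1 (points) with their 95% intervals (bars) from limma for miR-221 (grey) and miR-222 (red) in the 9 comparisons; the dashed line marks no difference. Intervals that leave out 0 are those of miR-222 for stage across 3 species (-1.35 to -0.04) and of miR-221 for quail minus chicken (0.19 to 1.81), and neither passed after adjustment.

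Quail had the highest miR-221 at HH20. In the first samples, miR-221 was 3.00-fold higher in quail than in chicken at HH20 and 1.60-fold higher at HH25, whereas miR-222 was 1.16-fold and 1.18-fold higher. Both members lay above every chicken sample of the same stage at both stages, which 23.7% of the list did. Above every duck sample at HH20 was only miR-221, among 34.9% of the list. In miR-221, the first duck samples were 2.21-fold below quail at HH20 and 1.01-fold above it at HH25. In miR-222, they were 1.34-fold and 2.85-fold above quail. The second duck sample at HH25 had 360.10 PMMR of miR-221 and 630.24 PMMR of miR-222, against 613.03 and 555.57 PMMR in quail. In the fit with stage as a term, quail exceeded chicken by 0.999 on the log2 scale (SE 0.364, 0.19 to 1.81) in miR-221, with a limma adjusted p of 0.196, and by 0.21 (-0.69 to 1.11) in miR-222, with a limma adjusted p of 0.843; 1.08% of the list (2 of 186) passed. Duck minus quail was -0.74 (-1.55 to 0.07) for miR-221, with a limma adjusted p of 0.310, and 0.60 (-0.30 to 1.50) for miR-222, with a limma adjusted p of 0.474; 5.91% of the list (11 of 186) passed. The median of all miRNAs was shifted by 0.33 towards quail against chicken. With each library centred on its own median, miR-221 was 0.62 higher in quail and miR-222 was at -0.17, so the sign of miR-222 is not fixed. Quail has 1 sample per stage, and its spread in these fits is borrowed from the other species.

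The last comparison asked whether the balance within the pair was constant. The ratio of miR-222 to miR-221 within a library does not depend on its depth or on the scaling. It was 1.96 and 1.47 in chicken at HH20, 1.22 and 1.19 in chicken at HH25, 0.759 at HH20 and 0.906 at HH25 in quail, 2.25 and 1.94 in duck at HH20, and 2.57 and 1.75 in duck at HH25. miR-222 exceeded miR-221 in 8 of 10 samples, and the 2 exceptions were both of quail. Counting error is small beside these differences: the 95% counting interval was 0.729 to 0.790 in quail at HH20, 1.14 to 1.31 in chicken at HH25 (first sample) and 2.44 to 2.71 in duck at HH25 (first sample).

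By species, the geometric mean ratio was 2.11 in duck (1.75 to 2.57, n = 4), 1.43 in chicken (1.19 to 1.96, n = 4) and 0.829 in quail (n = 2). On the log2 scale these were 1.07 ± 0.243, 0.52 ± 0.329 and -0.27 ± 0.181 (SD). At HH25 the ranges of duck and chicken did not overlap, and at HH20 the second duck sample, at 1.94, lay just under the first chicken sample, at 1.96. How many other pairs of miRNAs separate the species in this way was not computed. Duck exceeded chicken by 0.56 on the log2 scale, or 1.47-fold, with an exact permutation p of 0.111 (two-sided, species permuted within stage, n = 8), and 0.222 after adjustment over the 2 ratio tests. The smallest p that the 36 arrangements allow is 0.0556, so this permutation test could not reach 0.05 whatever the data, and it does not decide the question. Between the stages the mean log2 ratio differed by -0.14 across species, with an exact permutation p of 0.444 (two-sided, stage permuted within species, n = 10, smallest possible 0.0278), also 0.444 after adjustment. Within sample numbers the stage change of the log2 ratio was -0.68 and -0.30 in chicken, 0.26 in quail, and 0.20 and -0.15 in duck.

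**Figure D3:**
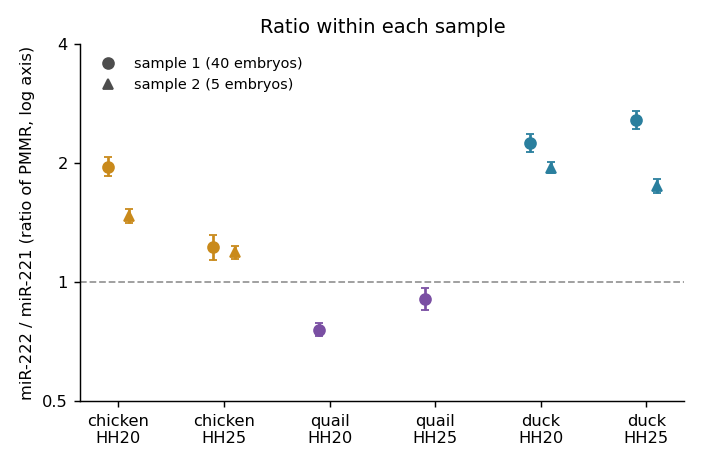
Ratio of miR-222 to miR-221 (PMMR, log axis) in each of the 10 samples by species and stage; circles are first samples, triangles second samples, bars 95% counting intervals, and the dashed line marks equal levels. The 2 quail samples, at 0.759 and 0.906, lie below the line and the other 8 samples above it, up to 2.57 in duck.

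Over the 10 samples, the levels of the pair were positively related, without passing the threshold. The Pearson correlation of log2(PMMR + 1) was 0.55 (permutation p = 0.0912) and the Spearman correlation was 0.61 (permutation p = 0.0676). Pairings were permuted freely over the samples, without regard to species or stage, here and for every correlation below. The p-values thus do not separate a relation within groups from differences between groups. After Benjamini-Hochberg adjustment over the 3 pairs among miR-221, miR-222 and miR-221*, the permutation p-values were 0.0912 and 0.0879. Without the 2 samples farthest from the median of miR-221, which were quail at HH20 and the second duck sample at HH25, Pearson's r was 0.72 (permutation p = 0.0452, n = 8). Among the 6 first samples alone it was 0.37 (exact permutation p = 0.525), and with each library centred on its median it was 0.46. In the 8 chicken and duck samples, a subset chosen after the data were seen, it was 0.88 (exact permutation p = 0.00972) and Spearman's rho was 0.71 (exact permutation p = 0.0576). Without the 2 of these samples farthest from the median of miR-221, the second chicken and the second duck one at HH25, r was 0.84 and rho 0.49, and r no longer passed (exact permutation p = 0.0667, n = 6). Quail at HH20, with its high miR-221, is the sample farthest from that relation.

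**Figure D4:**
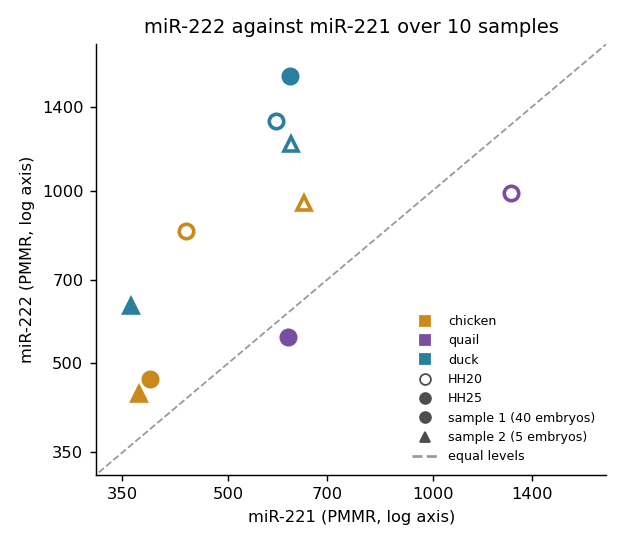
Level of miR-222 against that of miR-221 (PMMR, both axes log) in 10 samples; colours are species, open symbols HH20, filled symbols HH25, circles first and triangles second samples, and the dashed line marks equal levels. Chicken and duck samples lie above the line and quail below it, with quail at HH20 far to the right at 1302.70 PMMR of miR-221.

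The miRNAs whose levels ran most closely with each member were not the partner. For miR-221 the highest Pearson correlations over the 10 samples were with miR-301* (0.82), miR-19b* (0.81) and miR-302c (0.76), a member of the family abundant in embryonic stem cells. For miR-222 they were with miR-92a-2* (0.79), miR-144* (0.78), the star strand of an erythroid miRNA, and miR-150 (0.74), known from lymphocytes. The level of miR-150 was low, at 3.83 to 21.05 PMMR over the samples. Each partner ranked 19th of 185 on the list of the other, where the median correlation was 0.088 for miR-221 and 0.079 for miR-222. With each library centred on its median, the partner ranked 32nd for miR-221 and 33rd for miR-222, and the leading miRNAs were miR-2188, miR-301* and miR-205a for miR-221 and miR-144*, miR-92a-2* and miR-96 for miR-222. These are descriptions over 10 samples that share library depth and scaling.

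miR-221*, cut from the same hairpin as miR-221, was the more abundant strand in 9 of 10 samples. Its levels were 852.15 and 1436.93 PMMR in chicken at HH20, 533.04 and 467.44 PMMR in chicken at HH25, in quail 1154.49 PMMR at HH20 and 1087.9 PMMR at HH25, 1514.19 and 660.39 PMMR in duck at HH20, and 1046.2 and 427.66 PMMR in duck at HH25. The exception was quail at HH20, where miR-221* was at 0.886 of miR-221, and elsewhere the ratio reached 2.57. The second chicken sample at HH25 enters as the mean of its runs, and the order differed between them. miR-221* was at 670.17 PMMR against 382.49 PMMR of miR-221 in the first run, and at 264.71 against 357.08 PMMR in the second. Like the pair, it was lower in the second than in the first duck sample at HH25, by 2.45-fold, but it also differed 2.29-fold between the duck samples at HH20, where the pair did not. Its Pearson correlation was 0.69 with miR-221 (permutation p = 0.0166, 0.0497 after adjustment over the 3 pairs), with a Spearman correlation of 0.71 (0.0775 after adjustment). Without the 2 farthest samples, Pearson's r was 0.78 and Spearman's rho 0.57. Among the 6 first samples alone, r was 0.59 (exact permutation p = 0.15). With miR-222 the Pearson correlation of miR-221* was 0.63 (permutation p = 0.0548, 0.0822 after adjustment) and was 0.37 without the 2 chicken samples at HH25.

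Other miRNAs of the same setting were read beside the pair. Of 3 further miRNAs reported against CDKN1B in mammals (miR-24, miR-148a, miR-181a), none passed for stage, with a median of 0.19 against 0.06 over all miRNAs. Between duck and chicken over both stages 1 of the 3 passed, against 9.68% of all miRNAs: miR-24, which was 1.15 higher in duck on the log2 scale (SE 0.288, limma adjusted p = 0.0382), and the list's median was 0.64 against 0.20. Its call was lost after median-centring (0.99, limma adjusted p = 0.0945), on scaling to the miRNA reads (0.85, limma adjusted p = 0.115) and without an intensity trend (limma adjusted p = 0.0665), and it was also lost, at 1.08 to 1.32, with any 1 chicken or duck sample left out but the first chicken one at HH25. Of 9 miRNAs of the miR-17 to miR-92 and related clusters, known to promote proliferation, none passed in either comparison, and the medians were -0.10 for stage and 0.15 for duck minus chicken. Of 15 miRNAs known to restrain the cell cycle (let-7, miR-15/16 and miR-34 members), 3 rose at HH25 and none fell, against 3.23% of all miRNAs called in either direction: let-7f by 1.62, let-7g by 2.15 and let-7i by 2.70 on the log2 scale (limma adjusted p = 0.0242, 0.0176 and 0.0247). These 3 calls were lost without either chicken sample at HH20, the second duck one at HH20 or the first duck one at HH25, and for let-7i also without the second duck one at HH25, with log2 differences of 1.42 to 1.63, 1.94 to 2.14 and 2.49 to 2.79 there and a limma adjusted p of up to 0.0979. The median of these 15 was 1.02 for stage, where both members of the pair were negative, and none passed between duck and chicken, with a median of 0.70.

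The tissue was mesenchyme from which the authors had removed surface ectoderm and forebrain neuroectoderm, and the paper describes it as purely neural crest. miRNAs used here as markers of other cell types were also counted in it. Which cells these reads came from was not tested. The endothelial markers miR-126 and miR-126* summed to 30275 and 16407 PMMR in chicken at HH20, 4992 and 16842 PMMR in chicken at HH25, in quail 21774 PMMR at HH20 and 24499 PMMR at HH25, 40678 and 35426 PMMR in duck at HH20, and 24781 and 37720 PMMR in duck at HH25. Duck lay above chicken in this sum at both stages, as it did in miR-222, but the duck samples at HH25 were in the reverse order. The 5 blood markers summed to 462 to 781 PMMR in chicken at HH20 and 172 to 436 PMMR at HH25, 670 and 745 PMMR in quail, and 642 to 914 and 463 to 588 PMMR in duck. The 5 surface ectoderm markers summed to 252 to 534 and 62.6 to 561 PMMR in chicken, 1287 and 753 PMMR in quail, and 643 to 1915 and 417 to 1461 PMMR in duck, with the first duck sample above the second at both stages. The 3 neurosensory placode markers (miR-183, miR-182, miR-96) summed to 3994 and 5334 PMMR in chicken at HH20, 511 and 8914 PMMR in chicken at HH25, 2382 and 3164 PMMR in quail, 7331 and 7499 PMMR in duck at HH20, and 7398 and 2773 PMMR in duck at HH25. In duck, this sum was thus low in the same HH25 sample as miR-222, while in chicken at HH25 its samples lay far apart and those of miR-222 did not. The 5 neural markers summed to 1393 and 1729 PMMR in chicken at HH20, and to 4099.75 and 790 PMMR in its first and second samples at HH25. They summed to 1815 and 1538 PMMR in quail, and to 1992 to 2089 and 1208 to 1625 PMMR in duck. The first chicken sample at HH25 thus had the highest neural sum of all samples. It also had the lowest mesenchyme, endothelial, blood, surface ectoderm and neurosensory placode sums. The muscle markers miR-1a and miR-1b summed to 43.6 to 511 PMMR over all samples. None of these markers was at 0 in any sample. In bulk samples a smaller number of cells of a type cannot be told apart from less RNA per cell, and the part of these cells in the levels of the pair was not tested.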

How the data were processed

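The authors removed adapters and mapped reads with miRanalyzer (release 1) to chicken and human mature miRNAs (miRBase release 16), allowing 0 to 2 mismatches. They also matched reads to zebrafinch miRNAs. Their stated rule was to list miRNAs that exceeded 15 PMMR in at least 1 library, although miR-193b, at no more than 13.88 PMMR, is on the list. The deposited values are a normalized signal, PMMR, reads per 1000000 reads after adapter removal; multiplied by each library's total, 100% were whole reads (tolerance 0.1).

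The members and lists were chosen with earlier results of these data known. Members were taken by miRNA number, star strands unannotated in chicken left out; also named were miR-221*, the 3 miRNAs most correlated with each member, and 3 lists. limma 3.58.1 (R 4.3.3) was fitted to log2(PMMR + 1) of 186 miRNAs, with p-values moderated along an intensity trend and adjusted after Benjamini-Hochberg (threshold 0.05): stage across species and quail comparisons in 10 samples, the others in the 8 chicken and duck samples. Repeat runs of 1 sample were averaged. The replicates are separate pools of embryos, at most 2 per group. Folds are ratios of PMMR without a pseudocount. Ratios within the pair were compared by exact permutation tests and correlations by permutation tests (100000 resamples, or all pairings where enumerable), with scipy 1.17.1, pandas 2.3.3 and numpy 2.4.6 under Python 3.11.15; matplotlib 3.10.9 drew the figures. Counting intervals are at 95% and cover counting error only. The fits were checked on simulated data with independent noise, for returning an added log2 difference on average. No simulated library stood apart as the first chicken sample at HH25 does, so this check does not cover such a sample. Alternatives were pseudocounts of 0.1 and 10, median-centring, scaling to miRNA reads, no intensity trend, a mean of at least 15 PMMR, voom, the sample number as a replicate block, single runs and leaving out each sample.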

Additional observations from a re-analysis of the deposited data

Results flagged for a closer look

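The stage change in the balance of the pair had opposite signs in chicken and quail. The log2 ratio of miR-222 to miR-221 changed from HH20 to HH25 by -0.68 and -0.30 in the first and second chicken samples and by 0.26 in the single quail pair. The difference between the species was not tested, since quail has 1 sample per stage.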

How the results depend on the processing

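No adjusted p of either member passed under any alternative; the lowest was 0.155, and 0.0610 with a sample left out (miR-222, stage, limma). Of 192 alternative values, 186 kept their direction and side of the threshold. Median-centring turned miR-222 in quail minus chicken to -0.17 and miR-221 in duck minus chicken at HH20 to -0.14. Scaled to miRNA reads, the latter was -0.15, that over both stages -0.043, and the correlation of the pair 0.60 (permutation p = 0.0373); in chicken and duck alone, chosen after seeing the data, it was 0.88.

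With each sample left out in turn, 7 of 184 values changed sign and 1 passed. Stage in duck ranged from -0.74 to 0.030 for miR-221 and -1.0002 to 0.33 for miR-222, both highest without the second duck HH25 sample. miR-221 in duck minus chicken ranged from -0.10 (without the first chicken HH20 sample) to 0.48 at HH20 and from -0.065 (without the first duck HH25 sample) to 0.71 at HH25. The interaction ranged from -0.25 to 0.52 for miR-221 (also -0.15 without the second chicken HH20 sample) and -0.021 to 1.31 for miR-222, lowest without the first duck HH25 sample. The correlation ranged from 0.45 to 0.71 (without quail at HH20, permutation p = 0.0348). Without the first chicken HH25 sample, stage was -0.57 for miR-221 and -0.66 for miR-222, and duck minus chicken at HH25 1.18 for miR-222.

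Counts of miRNAs called moved more. Leaving out a chicken or duck sample leaves its group with a single library, and leaving out a quail sample leaves none. Counts from such fits show how unsteady the calls are and are not read as effects. Stage across species called 6, but 16 when median-centred and 2 to 17 leaving out 1 sample. Duck minus chicken over both stages called 18, but 10 when median-centred or scaled to miRNA reads and 6 to 42 leaving out 1; duck minus quail 11, but 1 to 25; quail minus chicken 2, but 4 when median-centred and 0 to 11. Duck minus chicken at HH25 called 4, but 0 when median-centred, with a pseudocount of 10 or by voom, and 0 to 43 leaving out 1. Counts of 0 reached 53 for stage in chicken, 9 for stage in duck, 14 for duck minus chicken at HH20 and 16 for the interaction with a chicken HH25 sample left out.

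Same-numbered samples share the pool size, but the labels name no shared preparation, batch or day. The deviations of same-numbered samples correlated at 0.01 to 0.61 over the group pairs of one species or stage. With the replicate block, stage across species called 10, duck minus chicken over both stages 24, stage in chicken 3 and quail minus chicken 1. For the pair it gave -0.56 and -0.69 for stage and 0.77 for miR-222 in duck minus quail, and no call changed. The log2 difference of the ratio between duck and chicken stayed at 0.56 (exact permutation p = 0.0556, n = 8). This p is the smallest that the 36 arrangements of species within stage allow, so the test could not pass the threshold. Swapping species only within both stage and sample number was not tested. TMM voom and the quasi-likelihood count fits were planned and not run, since the files were used as a normalized signal; voom with total reads as library size, added after seeing the data, stood in for them. Depth limits little: at least 1405 reads stand behind each value of the pair, and the number of samples limits the tests.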

Other observations

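The chicken HH25 sample that was sequenced 2 times gave, in its runs, 382.49 and 357.08 PMMR for miR-221, 487.98 and 395.62 PMMR for miR-222, and 670.17 and 264.71 PMMR for miR-221*, a 2.53-fold gap for the star strand. The ratio of miR-222 to miR-221 was 1.28 and 1.11 in these runs. miR-221* was among 7 of the 186 miRNAs that differed by more than 2-fold between runs of the same RNA, for which the median ratio of all miRNAs was 1.03.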
